A study of Mus musculus with 6 samples.

Results

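The nuclear genes for mitochondrial ribosomal proteins were compared between microglia given medium from ferroptotic macrophages and microglia given medium from normal macrophages. The members are the genes whose symbol starts with Mrpl or Mrps and a digit, without symbols that contain -ps, which mark pseudogenes. This rule found 78 of the 26096 genes in the table, 49 with an Mrpl symbol and 29 with an Mrps symbol, and left out 4 -ps symbols. Of the 78, 51 encode proteins of the large subunit, 26 encode proteins of the small subunit, and Mrps36 encodes a protein now placed in the oxoglutarate dehydrogenase complex and not in the ribosome. The symbols follow an older naming: Mrps18a and Mrps30 carry small-subunit symbols, and their proteins sit in the large subunit, where they are counted here.

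The study sequenced RNA from 6 samples of microglia, the macrophages that reside in the brain, from mice labelled wild type (WT). In 3 samples (labelled FeM CM) the cells were given the conditioned medium of macrophages, grown from bone marrow, that were undergoing ferroptosis, an iron-dependent death with lipid peroxidation. In the other 3 (C CM) the medium came from normal macrophages of the same kind. All 6 samples therefore received macrophage medium, and untreated microglia were not analysed here. Not given in the sources used here were the inducer of ferroptosis, the time of exposure, the age of the animals and how the microglia were obtained. The labels do not say whether the 3 samples of a group are separate cultures, so the p-values rest on a spread between samples that may be only technical.

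The mitochondrial ribosome translates the few messenger RNAs encoded by mitochondrial DNA, all of which specify core membrane subunits of the respiratory chain and of ATP synthase. Its ribosomal RNAs are transcribed inside the organelle, whereas every one of its proteins is encoded in the nucleus, made in the cytosol and imported. Compared with its bacterial relative it has shorter RNA and more protein, so some of its proteins have a bacterial counterpart and others are particular to mitochondria. In microglia, as in other macrophages, activation is known to shift energy metabolism between respiration and glycolysis.

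The deposited values are log2 of a normalized count plus 1, and levels are given below as normalized counts, that is counts divided by a size factor per library and not scaled to gene length. Between 39624311 and 50557794 reads were assigned to genes in each library. The 10 most abundant genes took 7.39% to 7.59% of reads with control medium and 8.95% to 9.29% with ferroptotic medium, and the part of this shift in the results was not tested. Over the 15597 genes that reached 10 normalized counts in 3 or more libraries, libraries of the same group correlated at 0.980 or more (Pearson, across genes) and libraries of different groups between 0.962 and 0.967. Of 11 markers of microglia and macrophages, 9 passed that filter. At a limma adjusted p under 0.05, 1 of them rose (11.1%) and 4 fell (44.4%). Over all genes tested 19.7% rose and 22.8% fell. The summed level of the 11 markers lay between 160104 and 168639 with control medium and between 138893 and 149893 with ferroptotic medium. The macrophage receptor Csf1r stood at 74146, 76948 and 77618 normalized counts with control medium and 59249.6, 57734 and 58798 with ferroptotic medium. P2ry12 and Tmem119, which define resting microglia of the brain, were at or near 0 in every library (at most 3.19 and 12.2 normalized counts). Markers of other cells also moved: summed neuronal markers were 2.94 to 7.83 against 55.3 to 66.5, with Tubb3 the one measured, fibroblast markers 6.85 to 11.8 against 26.6 to 60.9, with Col1a1 and Col1a2 at or near 0, and oligodendrocyte markers 6561 to 7011 against 4174 to 4374, nearly all from Mbp. Astrocyte markers summed to 880.1 to 977 against 1152 to 1214, and endothelial markers to 298 to 318 against 361 to 384. Within these lists single genes differed: 1 rose and 1 fell of 3 astrocyte markers tested, and likewise of 3 oligodendrocyte markers. These shares, 33.3% each way, rest on few genes and stand against the same 19.7% and 22.8% of all genes tested. The median log2 fold change was -0.02 over the astrocyte and 0.30 over the oligodendrocyte markers tested. Of 2 endothelial markers tested 1 rose (50%, against 19.7% of all genes tested), and their log2 fold changes were -0.43 and 0.51. The part of these cells in the results was not tested, and in bulk RNA a lower share of one kind of cell and less RNA per cell cannot be told apart.

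All 78 mitochondrial ribosomal protein genes passed the filter, with library values between 226 and 5378 normalized counts. With ferroptotic medium 29 of them (37.2%) fell and 5 (6.41%) rose at an adjusted p under 0.05 (limma, Benjamini-Hochberg over the 15597 genes, two-sided), and 44 were not called. Among all genes tested, 22.8% fell, 19.7% rose and 42.5% were called in either direction. The share called among these genes (43.6%) was therefore close to that background, and the split between falls and rises was 29 to 5. The median log2 fold change, ferroptotic minus control medium, was -0.15, a decrease of 10.02%, with quartiles of -0.28 and 0.03. By contrast, the median over all genes tested was -0.01 with quartiles of -0.29 and 0.28. In 55 of the 78 genes (70.5%) the fold change was below 0, against 50.4% of all genes tested.

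The changes were small. Only Mrpl18, Mrps28 and Mrpl54 fell at least 1.5-fold, 3 of 78 genes against 8.75% of all genes tested, and among the 29 Mrpl18 fell by 46.8% and Mrpl15, with the smallest change, fell by 8.29%, a call that did not hold when any 1 library was left out. The 3 libraries of each group did not overlap in 45 of the 78 genes. Ferroptotic medium lay below in 37 of the 78 and above in 8. For comparison, it lay below in 28.2% and above in 25.6% of all genes tested. All 34 called genes were among the 45. The authors' deposited table gives 33 falls and 5 rises among the 78 genes at a false discovery rate under 0.05. Its falls include all 29 found here. Over the 26096 genes in that table the shares were 14.3% and 12.9%. Those 26096 include genes below the filter of 10 normalized counts, which all 78 passed, so the sets are not alike. None of the 78 is in the authors' deposited table of 1699 changed genes, in which the smallest change is 1.00 on the log2 scale.

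**Figure D1:**
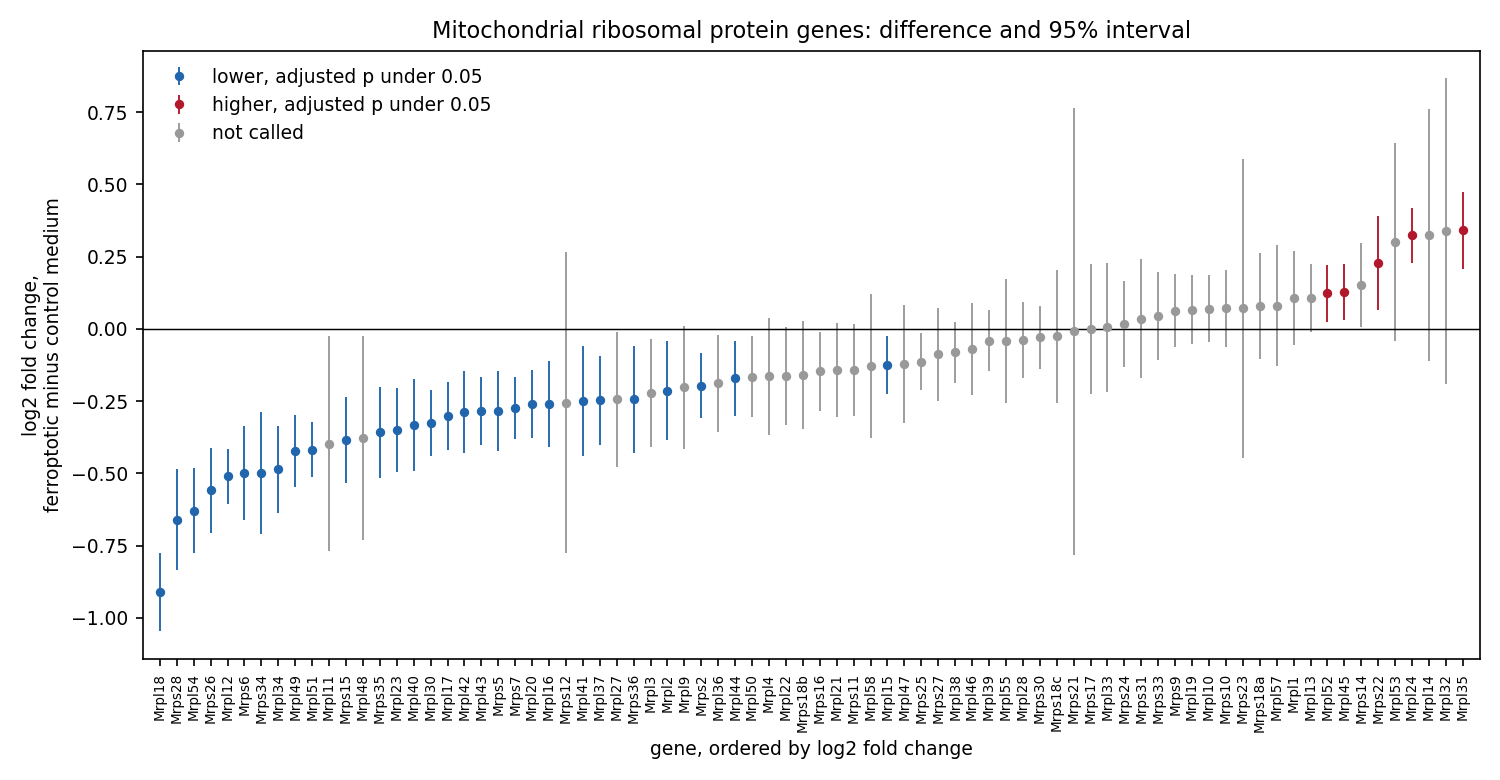
Log2 fold change (ferroptotic minus control medium, vertical axis) of each of the 78 mitochondrial ribosomal protein genes, ordered from the lowest to the highest (horizontal axis). Points are limma estimates from 3 libraries per group, bars are 95% confidence intervals, blue marks the 29 genes that fell, red the 5 that rose and grey the 44 not called. Mrpl18 stands apart at -0.91, the highest gene is Mrpl35 at 0.34, and the wide grey bars belong to genes such as Mrps21 and Mrpl32 with 1 library far from the rest of its group.

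The largest fall was that of Mrpl18, a protein of the central protuberance of the large subunit with a bacterial counterpart. Its level was 2962, 3039 and 3358 normalized counts with control medium and 1615, 1709.8 and 1648 with ferroptotic medium. Every ferroptotic library lay far below every control, and the log2 fold change was -0.91 (SE 0.059, limma adjusted p = 4.51e-06). Mrps28, a small-subunit protein related to bacterial S1, was at 721, 775 and 715 with control medium and 477, 453 and 466 with ferroptotic medium. The log2 fold change was -0.66 (SE 0.076, limma adjusted p = 0.00015), with each group held within a narrow band. Mrpl54, a large-subunit protein particular to mitochondria, stood at 1296, 1336 and 1219 against 849, 827 and 811 (log2 fold change -0.63, SE 0.064, limma adjusted p = 7.08e-05).

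Of the small-subunit proteins, Mrps26 is particular to mitochondria and was the next lowest. It measured 3501, 3677 and 3684 normalized counts with control medium and 2678, 2456 and 2256 with ferroptotic medium (log2 fold change -0.56, SE 0.064, limma adjusted p = 0.000152). The 3 ferroptotic libraries were more spread than the controls, and all lay below them. Mrps6, which has a bacterial counterpart, was at 2689, 2329.6 and 2708 against 1923, 1792 and 1744 (log2 fold change -0.50, SE 0.071, limma adjusted p = 0.000525). Mrps34, a protein particular to mitochondria whose loss in people causes Leigh syndrome, was at 1294, 1494 and 1578 against 1087, 1062 and 937 (log2 fold change -0.50, SE 0.092, limma adjusted p = 0.0023). Its control library 1 lay nearest to the other group and still above all 3 ferroptotic libraries.

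Among the other large-subunit proteins, Mrpl34, which has a bacterial counterpart, measured 1111, 1187 and 1118 against 839, 778 and 822 normalized counts (log2 fold change -0.49, SE 0.066, limma adjusted p = 0.000397). Mrpl49, particular to mitochondria, measured 2302, 2219 and 2152 against 1699, 1704 and 1576 (log2 fold change -0.42, SE 0.055, limma adjusted p = 0.000307). Mrpl51, also particular to mitochondria, measured 3506, 3480.1 and 3595 against 2574, 2662 and 2685 (log2 fold change -0.42, SE 0.041, limma adjusted p = 5.83e-05). In these 3 genes the libraries of a group stayed close together and the groups did not overlap. Together with Mrpl12, described below with the stalk, these were the 10 largest falls, and each of the 10 was called under all 13 alternative settings.

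**Figure D2:**
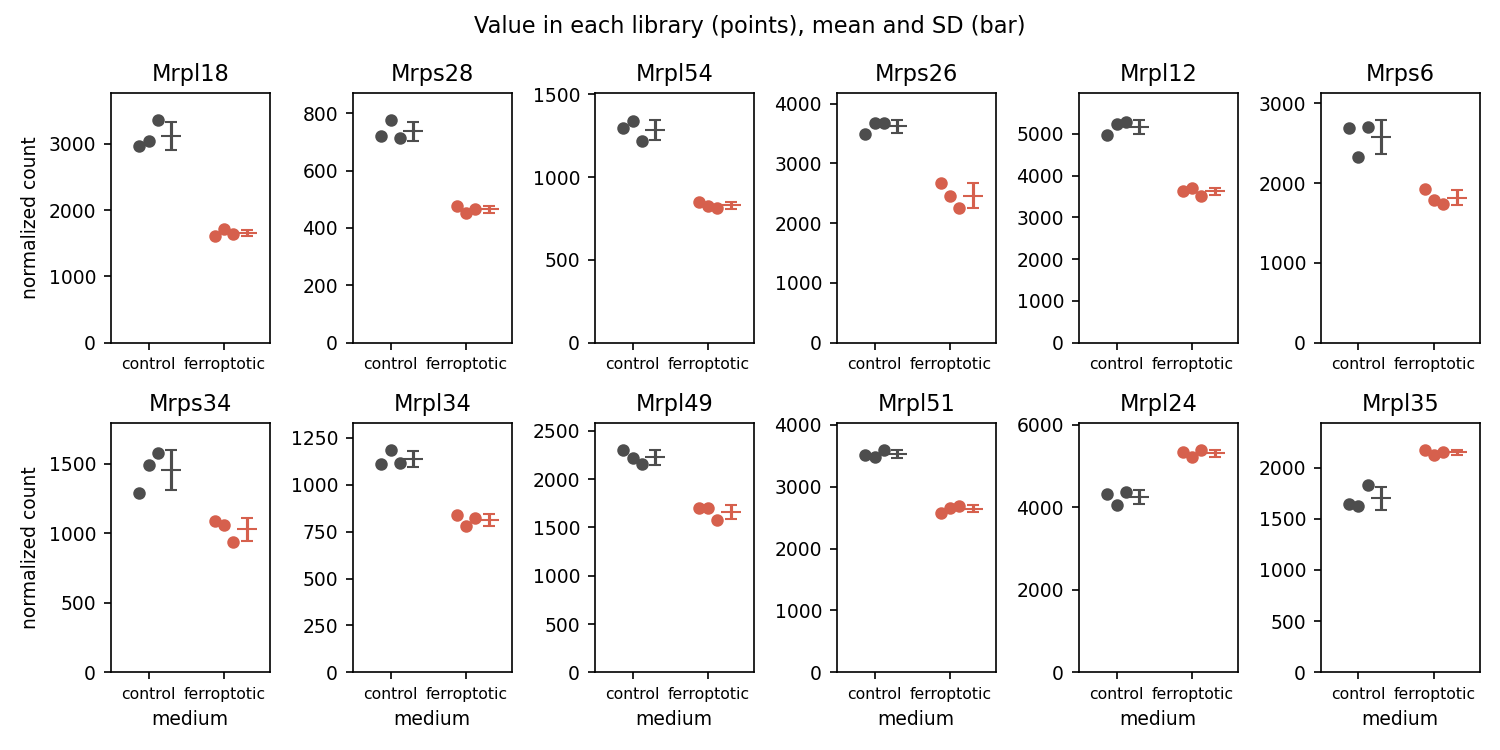
Normalized count (vertical axis, from 0) of the 10 mitochondrial ribosomal protein genes with the largest falls and of Mrpl24 and Mrpl35, which rose, in each of the 3 control libraries (grey) and the 3 libraries given ferroptotic medium (red). Points are libraries, and the bar beside them is the mean with its SD. In every panel the libraries of the groups do not overlap, and Mrpl18 has the lowest ratio between the groups, from 3119.6 ± 210.0 to 1658 ± 48 (SD, n = 3 each).

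Against the general direction, 5 genes rose, and 2 of them did so under all 13 alternatives. Mrpl35, a large-subunit protein with a bacterial counterpart, measured 1645, 1626 and 1826 normalized counts with control medium and 2171, 2123 and 2155 with ferroptotic medium (log2 fold change 0.34, SE 0.058, limma adjusted p = 0.0015). Mrpl24, a large-subunit protein near the mouth of the exit tunnel, measured 4315, 4042 and 4367 against 5327, 5212 and 5378 (log2 fold change 0.32, SE 0.042, limma adjusted p = 0.000302). In both genes all 3 ferroptotic libraries lay above all 3 controls.

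The other 3 rises were weaker. Mrps22, a small-subunit protein particular to mitochondria whose loss in people causes cardiomyopathy, measured 1413, 1274 and 1293 against 1439.8, 1647 and 1578 (log2 fold change 0.23, SE 0.071, limma adjusted p = 0.0308). Its highest control lay just below its lowest ferroptotic library, and the call was lost without control library 2 or 3 or ferroptotic library 2 or 3 (limma adjusted p between 0.0804 and 0.104). Mrpl45, which holds the ribosome to the inner membrane beside the tunnel exit, measured 3028, 2922 and 2904 against 3154, 3222 and 3297 (log2 fold change 0.13, SE 0.042, limma adjusted p = 0.0377). It was not called without any one of the same 4 libraries (limma adjusted p between 0.0861 and 0.118). Mrpl52, particular to mitochondria, measured 2404, 2346 and 2370.1 against 2549, 2641 and 2562 (log2 fold change 0.12, SE 0.043, limma adjusted p = 0.048), and leaving out any of the 6 libraries ended its call (limma adjusted p between 0.059 and 0.139). The count of rises was 2 without control library 2 or without ferroptotic library 2, and 3 without control library 3 or without ferroptotic library 3.

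The L7/L12 stalk of the large subunit recruits the translation factors that hydrolyse GTP. Mrpl12, its repeated subunit, fell from 4960.4, 5234 and 5274 normalized counts to 3636, 3704 and 3524 (log2 fold change -0.51, SE 0.042, limma adjusted p = 1.83e-05). Mrpl10, to which copies of Mrpl12 bind, was at 2923, 2721 and 2862 against 3003, 2833 and 3093 (log2 fold change 0.07, 95% interval -0.05 to 0.19, limma adjusted p = 0.316), so the groups overlapped. The stalk base protein Mrpl11 was at 1220.3, 1145 and 1068 against 1012, 672 and 960.2 (log2 fold change -0.40, SE 0.16, limma adjusted p = 0.0829). All 3 of its ferroptotic libraries lay below the controls, library 2 far below the rest, and it was called only when ferroptotic library 1 was left out (limma adjusted p = 0.0459). The interval of Mrpl12, -0.60 to -0.41, and that of its binding partner Mrpl10 did not meet.

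Mrpl2, Mrpl3, Mrpl16 and Mrpl27 lie around the peptidyl transferase centre, where peptide bonds form. Mrpl16 was at 1359, 1313 and 1245 against 1036, 1112 and 1125 (log2 fold change -0.26, SE 0.065, limma adjusted p = 0.0114) and Mrpl2 at 1808, 1596 and 1569 against 1528, 1364 and 1392 (log2 fold change -0.21, SE 0.074, limma adjusted p = 0.047). Mrpl2 lost its call without control library 1 or 2 or ferroptotic library 2 or 3 (limma adjusted p between 0.0631 and 0.152). Mrpl3, at 2471, 2870.3 and 2907 against 2193, 2308 and 2569.5, was not called (log2 fold change -0.22, limma adjusted p = 0.0571), and it was called as lower without control library 1 or without ferroptotic library 3 (limma adjusted p = 0.0155 to 0.026). Mrpl27, at 1212, 1182 and 1129 against 1108, 842 and 1044, was not called either (log2 fold change -0.24, limma adjusted p = 0.0885) and was called as lower without ferroptotic library 1 (limma adjusted p = 0.0365). Its ferroptotic libraries all lay below the controls. Mrpl58, a peptidyl-tRNA hydrolase built into the large subunit, was at 500.5, 500.4 and 473 against 475, 386 and 493 (log2 fold change -0.13, 95% interval -0.38 to 0.12, limma adjusted p = 0.383).

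On the small subunit, Mrps7, a protein of the head with a bacterial counterpart, fell from 2798, 2786 and 2727 to 2369, 2316 and 2197 normalized counts (log2 fold change -0.27, SE 0.047, limma adjusted p = 0.00156). The decoding-centre protein Mrps12 was at 733, 653 and 427 against 505, 425 and 560.4. Its control library 3 matched the ferroptotic level, so the groups overlapped (log2 fold change -0.25, 95% interval -0.77 to 0.27, limma adjusted p = 0.398), and without that library Mrps12 was called as lower (limma adjusted p = 0.0229). Mrps36, the member outside the ribosome, was at 766, 769.5 and 817 against 704, 678 and 608 (log2 fold change -0.24, SE 0.081, limma adjusted p = 0.0394) and lost its call without any one library other than ferroptotic library 1 (limma adjusted p between 0.0668 and 0.121). Without Mrps36, 28 of 77 genes fell and 5 rose.

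The Mrps18 family holds 3 related proteins that occupy different places in the ribosome, and none of them was called. Mrps18a, in the large subunit, was at 1912, 1912 and 1875 against 2186, 2102 and 1757 (log2 fold change 0.08, limma adjusted p = 0.48), and it was called as higher without ferroptotic library 3 (limma adjusted p = 0.0348). Mrps18b, in the small subunit, was at 2049, 2219 and 2068 against 2089.5, 1678 and 1927 (log2 fold change -0.16, limma adjusted p = 0.155), and it was called as lower without ferroptotic library 1 (limma adjusted p = 0.0425). Mrps18c, which takes the place of the bacterial protein, was at 1075, 1071 and 1123 against 1139.9, 909 and 1183 (log2 fold change -0.03, 95% interval -0.26 to 0.20, limma adjusted p = 0.865). The large-subunit protein Mrps30 was at 2042, 2087 and 2155 against 2014, 2095 and 2050.1 (log2 fold change -0.03, 95% interval -0.14 to 0.08, limma adjusted p = 0.673). In these 4 genes the libraries of the groups overlapped.

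Falls occurred in both subunits and in both classes of protein. The 51 large-subunit genes, at a median log2 fold change of -0.16, had 19 falls (37.3%) and 4 rises (7.84%). The 26 small-subunit genes, at a median of -0.13, had 9 falls (34.6%) and 1 rise (3.85%). Proteins with a bacterial counterpart (46 genes, median -0.15) had 16 falls (34.8%) and 2 rises (4.35%). Those particular to mitochondria (31 genes, median -0.13) had 12 falls (38.7%) and 3 rises (9.68%). The shares among all genes tested were 22.8% falls and 19.7% rises. Neither the differences between these subsets nor those from all genes were tested. The falls not described above lay between -0.38 for Mrps15 and -0.12 for Mrpl15, both of which have a bacterial counterpart.

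The shift was present in each library. Taking each gene's log2 value minus its mean in the control libraries, the median over the 78 genes was 0.0020, 0.0011 and 0.015 with control medium and -0.13, -0.19 and -0.12 with ferroptotic medium, while the same median over all genes tested stayed within 0.01 of 0 in every library. For the large subunit the ferroptotic libraries stood at -0.13, -0.19 and -0.12 and for the small subunit at -0.13, -0.17 and -0.068. The 78 genes together took 0.341%, 0.346% and 0.347% of the reads with control medium and 0.3104%, 0.306% and 0.305% with ferroptotic medium. In the medians and shares of the 78 genes and in the medians of each subunit, no ferroptotic library reached the control range.

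**Figure D3:**
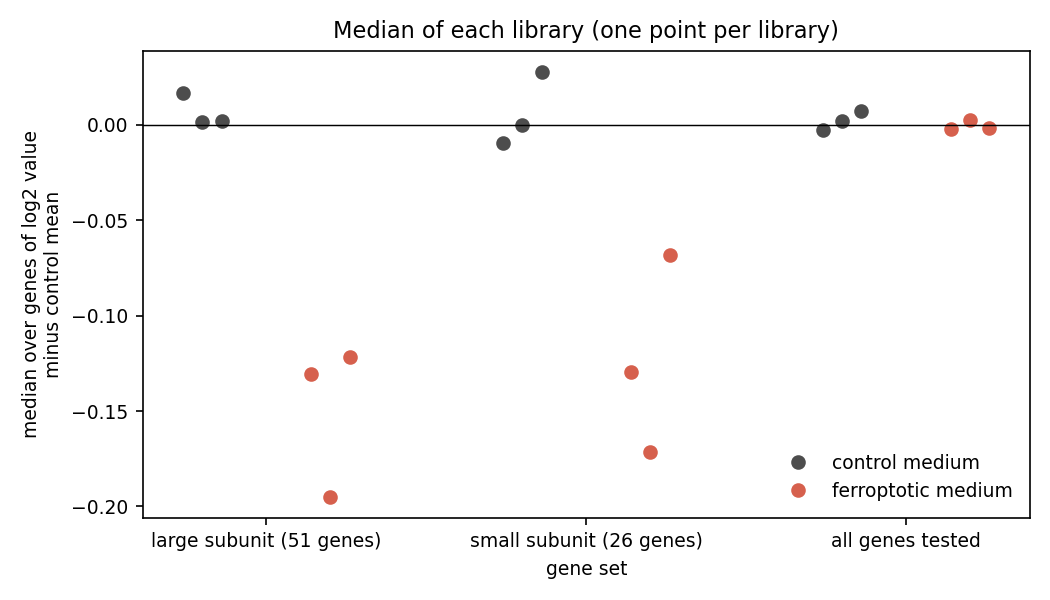
Median over genes of the log2 value minus the gene's mean in the control libraries (vertical axis), for the 51 large-subunit genes, the 26 small-subunit genes and all 15597 genes tested (horizontal axis). Each point is 1 library, grey for control and red for ferroptotic medium. Both subunits lie below 0 in all 3 ferroptotic libraries, between -0.068 and -0.19, and the median of all genes stays near 0.

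The range over the 3 libraries of a group exceeded 0.5 on the log2 scale in 4 of the 78 genes with control medium. With ferroptotic medium it did so in 3. Over all genes tested the shares were 23.4% and 24.6%. That set includes genes near the filter of 10 normalized counts, whereas no library value of a member was below 226. The part of level in this difference was not tested. Wide ranges decide several members that were not called. Mrps21, a small-subunit protein with a bacterial counterpart, was at 1212, 2290.1 and 2427 with control medium and 1859, 1907 and 1866 with ferroptotic medium. Its control library 1 lay far below the other controls and below the ferroptotic libraries, and without it Mrps21 was called as lower (limma adjusted p = 0.00303). Mrps23 and Mrpl14 were also lowest in control library 1, at 1696, 2619 and 2662 and 878, 1299 and 1397 over the 3 controls, against 2334, 2208 and 2665 and 1558, 1413 and 1429 with ferroptotic medium. Mrpl32, at 739, 711 and 682 against 786, 1276 and 724, was high in ferroptotic library 2, which carried its log2 fold change of 0.34 (limma adjusted p = 0.268). Mrpl48 was at 1052, 875 and 1061 against 946, 729.5 and 643 and was called as lower without ferroptotic library 1 (limma adjusted p = 0.00658).

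For the 44 genes not called, the data set different limits. In 20 of them the 95% interval lay inside a 1.2-fold change in either direction, and in 24 it reached past that. The standard error had a median of 0.067 over the 78 genes and ran from 0.041 for Mrpl51 to 0.30 for Mrps21. At an unadjusted limma p under 0.05, 37 of the 78 genes were lower and 6 higher. Of all genes tested, 26.2% were lower and 23.4% higher at that limit. Of the 29 falls, 22 were called under all 13 alternatives, and the others were Mrpl41, Mrpl37, Mrps36, Mrpl2, Mrps2, Mrpl44 and Mrpl15. Leaving out any of the 6 libraries ended the call of Mrpl15 (limma adjusted p between 0.0689 and 0.144), and it was kept under 1 of the 13 alternatives. Mrpl44 lost its call without any one library other than ferroptotic library 3 (limma adjusted p between 0.0797 and 0.119). Without control library 3 the calls of Mrpl41, Mrpl37 and Mrps2 were lost, the first also without control library 2 or ferroptotic library 1 and Mrpl37 also without ferroptotic library 2 or 3 (limma adjusted p between 0.0509 and 0.121).

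Promoters of genes for mitochondrial proteins often carry sites for the ETS factor GABP and for NRF1. RefSeq promoter sequence (GRCm38.p6) was found for 69 of the 78 genes, and the 250 bases before the annotated start were searched on both strands. The ETS core CCGGAAG was present in 17 of the 69 (24.6%), against 14.4% of the promoters of genes tested and 7.05% of all promoters in the table. The NRF1 core, written as GCGC, any base, T and GCGC, was present in 10 (14.5%), against 8.57% and 3.86%. YY1 letters AAGATGGCG stood in 2, TATAAA in 4 (5.80%, against 6.29% and 12.97%), CCAAT in 25 (36.2%, against 36.9% and 34.5%) and CACGTG in 5 (7.25%, against 8.52% and 6.05%). Among members that fell and the other members, the ETS core stood in 6 of 24 (25%) against 11 of 45 (24.4%), and the NRF1 core in 4 of 24 (16.7%) against 6 of 45 (13.3%). CCAAT stood in 7 (29.2%) against 18 (40%), CACGTG in 3 (12.5%) against 2 (4.44%), TATAAA in 1 against 3 and the YY1 letters in 0 against 2. The NRF1 palindrome, the form of that core with A as the free base, stood in 0 against 3. These differences rest on few promoters and were not tested. The median GC content was 58.4% in these promoters and 59.6% in those of genes tested. A match of letters is a description and not a bound site.

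The promoters of 5 called genes are printed to show such letters in genes that fell and in genes that rose. Each is the 250 bases before the start, 5′ to 3′ on the gene's own strand, with the ETS core or the NRF1 core in capitals, read on either strand. Mrpl18 (chr17:12916092-12916341, minus strand, the largest fall) has the ETS core starting at -240 from the start, Mrps26 (chr2:130563507-130563756, plus strand, fell) has it on the other strand at -14, and Mrps22 (chr9:98601680-98601929, minus strand, rose) at -11. Mrpl12 (chr11:120484387-120484636, plus strand, fell) has 1 NRF1 core at -81, and Mrpl45 (chr11:97315466-97315715, plus strand, rose) has 2, the nearer at -38.
Mrpl18: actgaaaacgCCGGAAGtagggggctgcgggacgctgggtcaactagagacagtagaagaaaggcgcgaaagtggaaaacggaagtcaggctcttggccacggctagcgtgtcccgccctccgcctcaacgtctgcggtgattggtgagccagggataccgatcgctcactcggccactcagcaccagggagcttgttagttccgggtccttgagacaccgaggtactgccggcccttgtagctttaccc
Mrps26: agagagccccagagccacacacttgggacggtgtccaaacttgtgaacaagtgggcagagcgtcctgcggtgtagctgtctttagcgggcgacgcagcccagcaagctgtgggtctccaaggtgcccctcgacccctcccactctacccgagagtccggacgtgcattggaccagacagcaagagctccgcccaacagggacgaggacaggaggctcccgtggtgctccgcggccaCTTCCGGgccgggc
Mrpl12: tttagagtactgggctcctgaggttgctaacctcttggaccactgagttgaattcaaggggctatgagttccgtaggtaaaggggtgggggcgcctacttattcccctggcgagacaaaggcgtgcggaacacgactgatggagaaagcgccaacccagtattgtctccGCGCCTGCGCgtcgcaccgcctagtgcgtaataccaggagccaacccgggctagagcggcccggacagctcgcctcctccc
Mrps22: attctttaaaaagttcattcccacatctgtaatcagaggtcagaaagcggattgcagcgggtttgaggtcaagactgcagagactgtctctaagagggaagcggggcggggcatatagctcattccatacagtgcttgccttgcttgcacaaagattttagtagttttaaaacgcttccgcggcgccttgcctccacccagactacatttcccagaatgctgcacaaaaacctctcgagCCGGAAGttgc
Mrpl45: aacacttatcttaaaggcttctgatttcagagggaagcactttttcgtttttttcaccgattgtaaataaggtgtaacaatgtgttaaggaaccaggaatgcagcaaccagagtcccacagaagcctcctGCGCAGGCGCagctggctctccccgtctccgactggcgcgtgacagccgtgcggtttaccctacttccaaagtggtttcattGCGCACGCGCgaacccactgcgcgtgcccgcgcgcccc
The ETS core thus lies close to the start both in a gene that fell and in one that rose, and the NRF1 core likewise.

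The factors that are known to act on these sites were measured in the same libraries. Of 9 tested transcription factors and co-activators of nuclear genes for mitochondria, 5 fell (55.6%) and 1 rose (11.1%). Over all genes tested these shares were 22.8% and 19.7%. The median log2 fold change was -0.36, which is the value of Pprc1, a co-activator that was not called (3064, 2732 and 2995 against 1814, 3338 and 1940.4 normalized counts), and it was -0.20 without ferroptotic library 1. Gabpa, the DNA-binding subunit of GABP, was at 3463, 3472 and 3339 normalized counts with control medium and 2511, 2583 and 2761 with ferroptotic medium (log2 fold change -0.39, limma adjusted p = 0.000261). Gabpb2, a partner subunit, was at 5449, 5678 and 5604 against 2891, 3074 and 3159 (log2 fold change -0.88, limma adjusted p = 1.07e-06). These were among the clearest differences, with no overlap between groups. Another partner subunit, Gabpb1, was not called, at 1183, 1390 and 946 against 1076, 1089 and 1164 (log2 fold change -0.06, limma adjusted p = 0.742), and its groups overlapped. Nrf1 was at 950.0, 996 and 927 against 593, 716 and 641 (log2 fold change -0.56, limma adjusted p = 0.000783), and the co-activator Ppargc1b at 713, 831 and 795 against 416, 419.5 and 408 (log2 fold change -0.91, limma adjusted p = 4.06e-05). Yy1 fell by less (log2 fold change -0.22, limma adjusted p = 0.00415), and the nuclear receptor Esrra rose (log2 fold change 0.18, limma adjusted p = 0.0171), a call lost without control library 3. Ppargc1a was below the filter, at most 6.65 normalized counts.

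Many genes for mitochondrial proteins share a short promoter with a gene on the opposite strand. By GENCODE M21 gene models, 18 of the 78 genes (23.1%) start head to head within 1000 bases of another protein-coding gene. The share was 11.0% of 11935 protein-coding genes tested. Pairs whose gene models overlap at their starts were left out of both shares. Of these neighbours 17 were tested, 7 fell and 5 rose (median log2 fold change 0.0024). Where the member fell and the neighbour was tested (10 pairs), the neighbour fell in 4 and rose in 2. Over all genes tested 22.8% fell and 19.7% rose, and the difference of the neighbours from these shares was not tested. Among the 10 largest falls, Mrpl54 starts 26 bases from Apba3, an adaptor protein gene, which was at 602, 687 and 579 with control medium and 1201, 1026 and 1093 with ferroptotic medium (log2 fold change 0.83, limma adjusted p = 0.000121), opposite to Mrpl54. Mrpl49 starts 59 bases from Fau, which encodes a cytosolic ribosomal protein and was at 12564, 12948 and 12954 against 15739.9, 14044 and 14757 (log2 fold change 0.21, limma adjusted p = 0.00414), also opposite. Mrpl51 starts 100 bases from the condensin gene Ncapd2, which fell with it, from 7136, 7500.1 and 7688 to 2983, 2858 and 2944 (log2 fold change -1.34, limma adjusted p = 7.4e-08). Mrps34 starts 29 bases from Eme2, which was not called (log2 fold change 0.24, limma adjusted p = 0.103).

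Some members cannot be read without regard to other genes. The use of strand in counting, not given in the sources used here, matters because in the M21 models at least 10% of exon bases overlap a gene on the opposite strand in 13 members and on the same strand in 5. Among the genes described, Mrps34 shares 63.4% of its exon bases with Mapk8ip3 on the other strand (log2 fold change 0.87) and 37.0% with Nme3 on its own (log2 fold change -0.53). Mrps6 shares 19.9% with Gm49711, which has no value here, and 10.4% with Slc5a3 (log2 fold change -0.81), both on its own strand. Mrpl18 shares 10.1% with Tcp1 on the other strand (log2 fold change -0.26), and Tcp1 had a mean of 16378.5 normalized counts over all libraries. Mrpl24 shares 26.3% with Rrnad1 on the other strand (log2 fold change 0.004), and Mrpl12 shares 13.1% with the non-coding Gm16755. Mrps25 shares 69.8% with Nr2c2 and Mrpl14 shares 11.2% with Tmem63b, both on the other strand (log2 fold changes 0.14 and 0.56). Mrps18c shares 23.2% with Gm43511 on its own strand (log2 fold change 1.01). Mrps18b shares 30.5% with Gm16279 and Mrpl10 shares 14.1% with Gm11574, both non-coding and on the other strand. The direction of Mrps34 was opposite to that of Mapk8ip3 and the same as that of Nme3. Mrps6 had the same direction as Slc5a3, Mrpl18 as Tcp1 and Mrpl14 as Tmem63b, while Mrps25 and Mrps18c were opposite to theirs. The part of these overlaps in the members' values was not tested.

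Processed pseudogenes at least 95% identical over at least 200 bases exist for 19 members, so reads could be split between copies. Neither Mrpl24 nor Mrpl35 is among them. In 4 of these a copy reached 10% of the member's own level: Mrpl23-ps1 stood at 45.4% of Mrpl23, Gm5776 at 36.2% of Mrps33, AC154457.3 at 31.5% of Mrps10 and Mrpl48-ps at 15.6% of Mrpl48. Values of these 4 members are uncertain for that reason. Of the 10 largest falls, Mrps26 and Mrpl51 have such a copy, at 1.59% and 1.499% of their level.

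Genes that work with the mitochondrial ribosome were described by lists chosen for function. The 5 ribosomal proteins under other symbols had a median log2 fold change of -0.15 (-0.10 with quantile normalization), close to that of the 78: Chchd1 (log2 fold change -0.21, limma adjusted p = 0.0155) and Gadd45gip1 (log2 fold change -0.31, limma adjusted p = 0.0292) fell, and Dap3, which binds GTP in the small subunit, rose (log2 fold change 0.15, limma adjusted p = 0.0443). No fall was left without control library 3 or without ferroptotic library 2, 1 fall was left without control library 1 or 2 or ferroptotic library 3, and no rise was left without control library 2 or 3 or ferroptotic library 1 or 3. Of 13 mitochondrial translation factors 3 fell and 3 rose (23.1% each way, against 22.8% and 19.7% of all genes tested). Their median log2 fold change was -0.08, and it was -0.03 with quantile normalization, -0.02 without control library 3 or without ferroptotic library 2 and -0.04 without ferroptotic library 3. Tsfm and Gfm1, which serve elongation, and Oxa1l, which inserts new chains into the inner membrane, fell (log2 fold changes -0.34, -0.23 and -0.20; limma adjusted p = 0.00209, 0.00452 and 0.00548). The release factor Mtrf1l, the Cox1 translation activator Taco1 and the initiation factor Mtif2 rose (log2 fold changes 0.48, 0.28 and 0.31; limma adjusted p = 0.00407, 0.0317 and 0.0321). Only 1 rise was left without control library 2 or without ferroptotic library 3.

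Of 27 factors that assemble the mitochondrial ribosome 6 fell (22.2%) and 4 rose (14.8%), against 22.8% and 19.7% of all genes tested. Their median log2 fold change was 0.03 and changed sign between settings, from -0.03 to 0.06. The GTPase Noa1 was at 1839, 1833 and 1908 against 1398, 1259 and 1289 normalized counts (log2 fold change -0.50, limma adjusted p = 0.000176), whereas Ngrn, which binds the large ribosomal RNA, was at 977, 1028 and 982 against 1628, 1623 and 1589 (log2 fold change 0.70, limma adjusted p = 1.53e-05). The pseudouridine synthase Rpusd4 and Rcc1l also fell (log2 fold changes -0.31 and -0.42; limma adjusted p = 0.00118 and 0.00238), and the methyltransferase Nsun4 rose (log2 fold change 0.80, limma adjusted p = 0.0123), as did Ddx28 and Mterf4 (log2 fold changes 0.26 and 0.34; limma adjusted p = 0.0169 and 0.0283). Falls numbered 3 without ferroptotic library 2, and rises numbered 2 without control library 2 or without ferroptotic library 3. Assembly factors were thus called in both directions, at shares no higher than those of all genes tested.

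Of 20 mitochondrial aminoacyl-tRNA synthetases and amidotransferase subunits, which charge the organelle's tRNAs, 10 fell (50%) and 1 rose (5%). The shares over all genes tested were 22.8% and 19.7%. The median log2 fold change of the 20 was -0.19. The enzyme for cysteine, Cars2, was at 1091, 1203 and 1151 against 662, 665 and 626 normalized counts (log2 fold change -0.82, limma adjusted p = 2.36e-05). Sars2, for serine, was at 509, 529.8 and 587 against 321, 288 and 341 (log2 fold change -0.78, limma adjusted p = 0.000354), and it starts 172 bases from Mrps12 on the opposite strand. Mars2, for methionine, fell as well (log2 fold change -0.43, limma adjusted p = 0.00107), and Fars2, for phenylalanine, rose (log2 fold change 0.28, limma adjusted p = 0.0154). Over the alternatives the number of falls in this list ran from 7 to 11.

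Among 19 genes for mitochondrial RNA synthesis and handling 6 fell (31.6%) and 3 rose (15.8%), against 22.8% and 19.7% of all genes tested. Their median log2 fold change was -0.03, and it ran from -0.10 without ferroptotic library 3 to 0.01 with quantile normalization. The nuclease Pnpt1 fell from 5899.7, 5662 and 5804 to 3559, 4138 and 4227 (log2 fold change -0.55, limma adjusted p = 0.000183). Lrpprc and Slirp encode partners in one complex that stabilises mitochondrial messenger RNA: Lrpprc fell (log2 fold change -0.26, limma adjusted p = 0.00047) and Slirp rose (log2 fold change 0.54, limma adjusted p = 0.000339). Tbrg4 fell (log2 fold change -0.31, limma adjusted p = 0.000685), and Tefm and Fastk rose (log2 fold changes 0.49 and 0.43; limma adjusted p = 0.00881 and 0.0367).

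The messages that this ribosome translates were also measured. Of the 13 protein-coding genes of mitochondrial DNA 2 fell (15.4%) and 1 rose (7.69%), against 22.8% and 19.7% of all genes tested. Their median log2 fold change was 0.04, and it ran from -0.06 to 0.11 over the alternatives. The complex I subunit gene mt-Nd1 was at 107832, 95231 and 96818 against 59488, 69298 and 72789 normalized counts (log2 fold change -0.58, limma adjusted p = 0.00517), and mt-Nd2 at 50289, 45828 and 46473 against 32627, 38044 and 40784 (log2 fold change -0.36, limma adjusted p = 0.0238). The complex IV subunit gene mt-Co3 was at 78047, 76675 and 78146 against 79763, 86266 and 88797 (log2 fold change 0.13, limma adjusted p = 0.0244) and was not called with quantile normalization. Ferroptotic library 1 was the lowest of its group in all 3, and in it mt-Atp6 stood at 20538, against 91872 and 98577 in the other libraries of its group. Without that library 5 of the 13 rose and 3 fell, without ferroptotic library 3 none rose and 4 fell, and without any one of the other 4 libraries none rose and 1 fell.

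Mitochondrial chaperones and proteases, which fold and remove imported and newly made proteins, had 4 rises and 2 falls among 14 genes. These shares, 28.6% and 14.3%, stood against 19.7% and 22.8% of all genes tested. The chaperonin pair Hspd1 and Hspe1 fell, Hspd1 from 30294, 28923 and 30442 to 21853, 22433 and 22809 (log2 fold changes -0.42 and -0.24; limma adjusted p = 9.89e-06 and 0.00119). The protease gene Afg3l2, whose product is known to mature the protein of Mrpl32, rose from 4879, 4775 and 5034 to 6838, 6806 and 6748 (log2 fold change 0.47, limma adjusted p = 1.02e-05). Lonp1, Hspa9 and Grpel1 also rose (log2 fold changes 0.40, 0.12 and 0.16; limma adjusted p = 5.8e-05, 0.00421 and 0.0217). Without trend and robust estimation 2 of the 14 rose. The chaperonin genes fell, while the called protease genes rose.

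Cytosolic ribosomal proteins gave a different picture from their mitochondrial counterparts in the same libraries. Of 79 genes tested 33 rose (41.8%) and none fell by limma, against 19.7% and 22.8% of all genes tested. None (0) was lower at an unadjusted p under 0.05, while 1 fell when ferroptotic library 1 was left out. Their median log2 fold change was 0.09, with a range from -0.04 to 0.29, so the rises were small. Rpl7 was at 27696, 25503 and 26644 against 32564, 31821 and 33212 normalized counts (log2 fold change 0.29, limma adjusted p = 0.000201), and Rpl12, Rpl35 and Rpl24 followed (log2 fold changes 0.21, 0.23 and 0.22; limma adjusted p = 0.000229, 0.000296 and 0.00042). The median stayed above 0 under all 13 alternatives, and the number of rises was 11 without trend and robust estimation and 22 without control library 2. The difference between the cytosolic and the mitochondrial list was not tested.

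**Figure D4:**
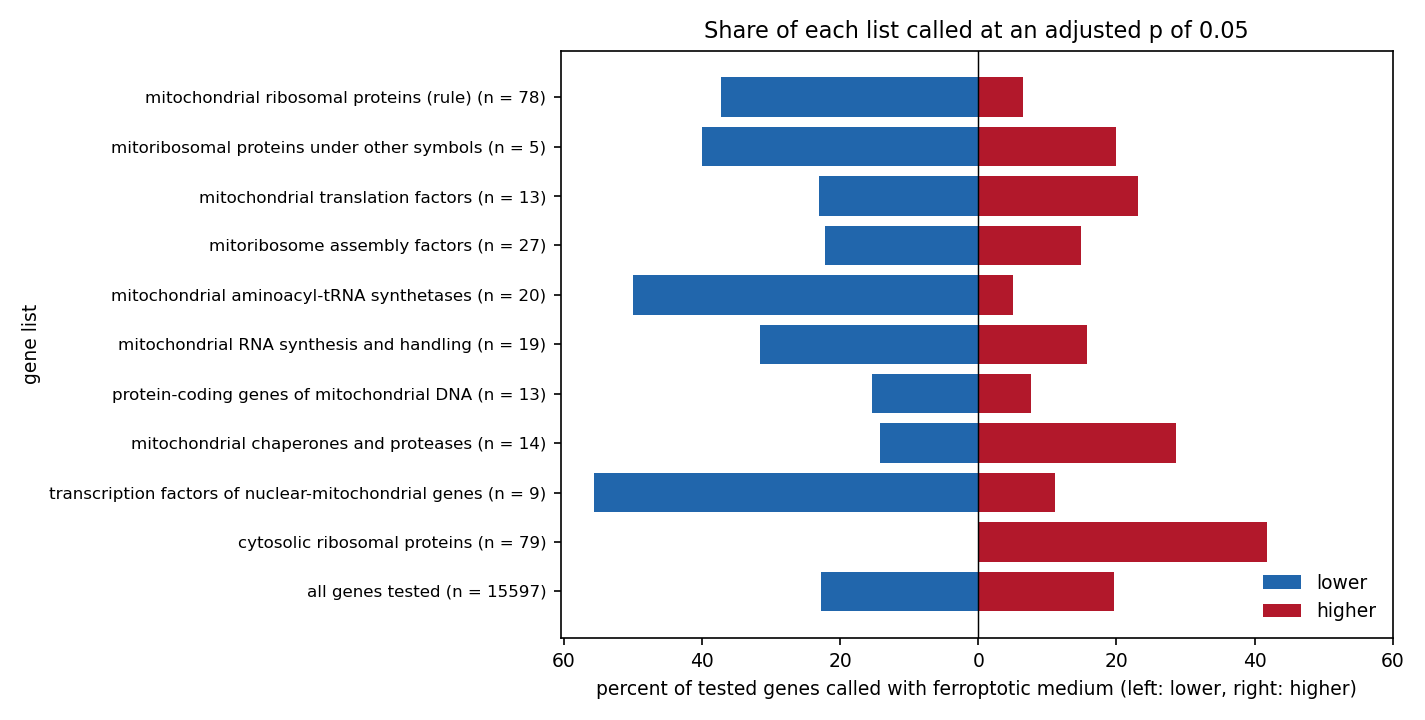
Percent of the tested genes of each list (vertical axis) that fell (blue, to the left) or rose (red, to the right) with ferroptotic medium at a limma adjusted p under 0.05; n is the number of genes tested. The 78 mitochondrial ribosomal protein genes have 37.2% falls and 6.41% rises, the cytosolic ribosomal proteins have rises and no falls, and all genes tested have 22.8% falls and 19.7% rises.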

How the data were processed

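RNA from 6 samples of mouse microglia, 3 given ferroptotic and 3 given normal macrophage medium, was sequenced as mRNA libraries on an Illumina NovaSeq, per the labels' protocols. Per the submitters' processing notes, the authors worked with HISAT2 2.1.0, fastp 0.17.1, R 3.4.3 and DESeq2 1.18.1. Not given in the sources used here were the build of the genome, the gene annotation, how reads were counted and whether strand was used. The deposited log2 values of 26096 genes behave as log2 of a count over a size factor, plus 1: with the log undone, 100% of them lay within 0.01 of a whole number of reads in each library. On this log2(value + 1) scale the changes of low genes are understated. Of the authors' own test, the deposited p-values and false discovery rates were used only to count their calls.

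From these log2 values the groups were compared with limma 3.58.1 (R 4.3.3), with trend and robust estimation, two-sided and with medium as the only term. Genes that reached 10 normalized counts in 3 or more libraries entered the fit (15597). P-values were adjusted over them after Benjamini and Hochberg, the threshold was 0.05, and SE is the moderated standard error. The test was tested on simulated data. The 13 alternatives were a filter of 1, no filter, a pseudocount of 10, quantile normalization, median centring, limma without trend and robust, a replicate block, and leaving out each of the 6 libraries. A planned limma-voom fit on whole reads is not reported, because the values were deposited on a log2 scale. Whole reads were worked out from these values and may be rounded estimates.

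The members and the gene lists were chosen with earlier results of these data known. Genes named were the 10 largest falls and 10 largest rises among called members (5 rose), a set fixed by role, members whose call varied between settings, and, of each list, up to 4 genes with the smallest p-values and all called genes where 5 or fewer were called in a direction. A gene that this rule names is not reported here. Head-to-head neighbours and overlapping genes were named through such a member, and Tmem63b through Mrpl14. Mrps23, Mrpl14, Mrpl32, mt-Atp6, Gabpb1 and the pseudogenes were named after their values were seen. Overlaps, neighbours and pseudogenes come from GENCODE M21 (BLAST 2.17.0), and promoters from RefSeq GRCm38.p6. The lowest library value of a member was 226 normalized counts. The parts of counting error and of the spread between samples in the precision were not separated.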

Additional observations from a re-analysis of the deposited data

How the results depend on the processing

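Across the 13 alternatives between 24 and 30 of the 78 genes fell, against 29 as reported. Between 5798 and 6732 of all genes were called, against 6629. The planned limma-voom fit on whole reads is not reported, since the values were deposited on a log2 scale. The number of rises, 5 as reported, was 3 with no filter, 2 without trend and robust, and 2 to 4 when 1 library was left out. No pairing of the libraries by replicate number was evident: the correlations of same-numbered deviations from the group means were 0.0086, -0.0196 and -0.0393, all under 0.1. With 3 libraries per group these correlations cannot exclude pairing. With the replicate block 27 genes fell, 2 rose and 6226 of all genes were called, and Mrpl3 was then called as lower (limma adjusted p = 0.0196). The median log2 fold change, -0.15 as reported, was -0.11 with quantile normalization and between -0.18 and -0.13 when 1 library was left out, and it stayed below 0 under all 13. With quantile normalization 3 list counts moved by over 1.5 times or to 0: 1 ribosomal protein under another symbol fell, and of the genes of mitochondrial DNA none (0) rose and 4 fell. Smaller moves were 24 rises of cytosolic ribosomal proteins, 4 falls in RNA handling, 5 rises and 5 falls of assembly factors, 9 falls of synthetases and 4 rises of translation factors; Mrps14 was called as higher (limma adjusted p = 0.0279). Direction reversed in 3 named members, none of them called: the log2 fold change became 0.0211 for Mrps30 and 0.0188 for Mrps18c with quantile normalization, and for Mrps21 it became 0.0114 with median centring and 0.0417 with quantile normalization. When 1 library was left out it ran from -0.098 to 0.0921 for Mrps18c (positive without ferroptotic library 2) and from -0.33 to 0.17 for Mrps21 (0.17 without control library 3, 0.13 without control library 2). Leaving out ferroptotic library 3 made Mrpl9, Mrps16 and Mrps25 lower, ferroptotic library 2 made Mrpl36 lower, and control library 3 made Mrpl9 lower and Mrps14 higher (limma adjusted p between 0.0298 and 0.0496). Among the named members 435 results kept their direction and call, 74 lost the call, 17 gained one and 7 reversed; the causes were not tested. Quantile normalization and median centring moved the median of all genes to 0.0020 and 0.015.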
